A study of Mus musculus with 12 samples.

Results

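The 10 genes described here encode the apolipoproteins Apoa1, Apoa2, Apoa4, Apoa5, Apob, Apoc1, Apoc2, Apoc3 and Apoe and the transfer protein Mttp, which loads lipid onto apolipoprotein B. They were taken by gene symbol, and the set was chosen with earlier results of these data known. All 10 were found among the 20719 genes with a symbol on the array. Where a symbol had more than 1 probe set, the one with the highest mean was used. Each of 12 mice gave 1 liver RNA sample and 1 array, and there were 4 groups of 3: knock-out (KO) mice starved for 24 h, wild-type (WT) mice starved for 24 h, KO mice fed chow, and fed WT mice. All starved mice had free access to water. The KO mice carried loxP sites around exon 9A of Lamp2 and an Albumin-Cre transgene, which is expressed in hepatocytes, on a C57BL/6 background. Whether the WT mice carried Cre or the loxP allele is not stated in the labels. Exon 9A encodes the end of the isoform that serves as receptor for chaperone-mediated autophagy, the uptake of single cytosolic proteins by lysosomes. All levels below are deposited log2 expression values, on which a difference of 1 is a 2-fold change, and all differences are starved minus fed or KO minus WT.

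Apolipoproteins are the protein coat of the particles that carry fat and cholesterol in blood. Hepatocytes assemble very-low-density lipoprotein (VLDL) by adding triglyceride to a growing Apob chain with the help of Mttp. Apoa1 and Apoa2 are the main proteins of high-density lipoprotein (HDL). The small C apolipoproteins, Apoe and Apoa5 act on how fast particles are broken down by lipoprotein lipase and taken up by receptors. In mice Apoa1, Apoc3, Apoa4 and Apoa5 lie next to each other on chromosome 9, and Apoc2, Apoc4, Apoc1 and Apoe form another cluster on chromosome 7. In starvation the liver receives fatty acids from adipose tissue, burns part of them and exports part as triglyceride in VLDL.

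The livers carried the RNA of hepatocytes: 9 of 10 listed symbols of hepatocyte markers were found on the array, and Alb averaged 14.24. The mean level of the 9 was 13.33 to 13.59 in KO starved, 13.40 to 13.62 in WT starved, 12.96 to 13.48 in KO fed and 12.94 to 13.52 in WT fed livers. The 12 arrays did not have the same spread of values. In 6 arrays, called wide here, the interquartile range of all values was 2.97 to 3.06, and in the other 6, called narrow, 2.62 to 2.91. The wide arrays were KO starved replicates S6 and S7, WT starved replicates S3 and S4, KO fed replicate F6 and WT fed replicate F1, so the starved groups held 4 wide arrays and the fed groups 2. WT starved replicate 3 had the narrowest array and the lowest median correlation with its own group, 0.9777. Lamp2 had a single probe set, at 12.33 to 12.60 in KO starved, 12.49 to 12.68 in WT starved, 12.49 to 12.81 in KO fed and 12.24 to 12.61 in WT fed livers. The labels do not say which exons it covers, so it checks neither the deletion nor the labels.

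Starvation raised Apoa4 in both genotypes and Apoa5 when both genotypes were averaged, and no apolipoprotein gene or Mttp differed between KO and WT livers beyond the replicate error. Apoa4 was 5.66-fold higher in starved than in fed KO livers and 8.11-fold higher in starved than in fed WT livers, and Apoa5 was 1.5-fold higher over both genotypes. Between starved and fed KO livers 1 of the 10 genes passed an adjusted p of 0.05 in limma, against 1.02% of all genes. Between starved and fed WT livers it was also 1 of 10, against 1.41% of all genes, and in the average over genotypes 2 of 10, against 5.16% of all genes. At an unadjusted p under 0.05 it was 2 of 10 in KO livers, against 9.32% of all genes, 4 of 10 in WT livers, against 12.7%, and 5 of 10 in the average, against 17.7%. The values of starved and fed livers did not overlap for 2 of the 10 genes in KO mice, where this held for 16.5% of all genes, and for 3 of 10 in WT mice, where it held for 13% of all genes. The median starvation difference of the 10 genes was 0.07 in KO and 0.23 in WT livers, beside -0.03 and -0.01 over all genes. In bulk liver RNA, more cells making a transcript and more transcript per cell cannot be told apart.

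**Figure D1:**
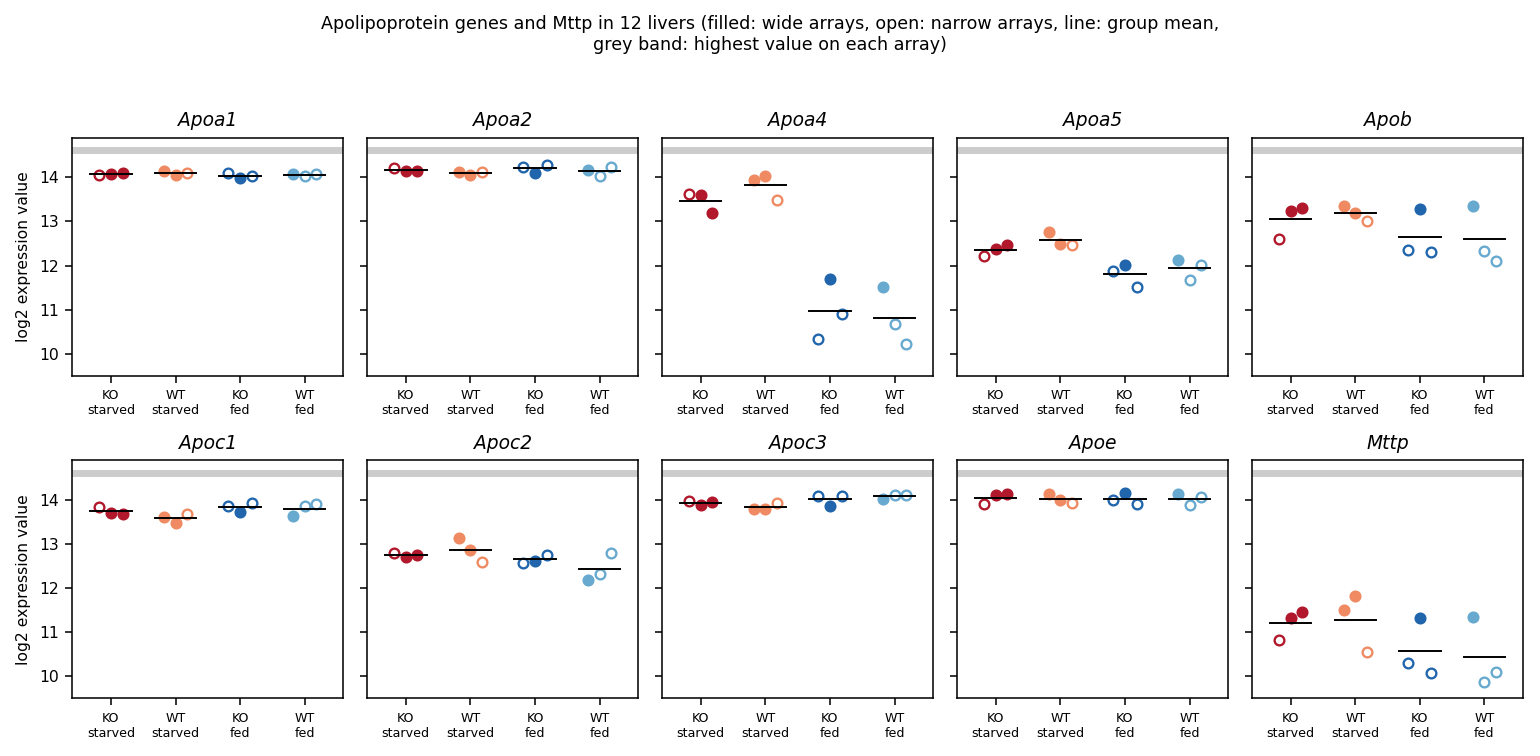
Log2 expression value (vertical axis) of each of the 10 genes in each of the 12 livers, in the groups KO starved, WT starved, KO fed and WT fed; each point is 1 liver, filled for wide and open for narrow arrays, the line is the group mean and the grey band spans the highest value of each array, 14.55 to 14.67. Apoa4 is above 13 in every starved liver and below 12 in every fed liver, while Apoa1, Apoa2, Apoc3 and Apoe lie close under the band in all groups.

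Apoa4 encodes apolipoprotein A-IV, which in mice is made by liver and intestine and travels on newly secreted triglyceride-rich particles and on HDL. Its level was 13.63, 13.60 and 13.20 in the starved KO livers and 13.95, 14.04 and 13.49 in the starved WT livers. It was 10.33, 11.69 and 10.90 in the fed KO livers and 11.52, 10.66 and 10.23 in the fed WT livers. All 6 starved livers thus lay above all 6 fed livers, a separation that 3.87% of all genes showed. The fed groups were the more spread, with means of 10.97 ± 0.68 in KO and 10.80 ± 0.66 in WT livers, while the starved groups averaged 13.47 ± 0.24 in KO and 13.82 ± 0.30 in WT livers (SD, n = 3 each). Starved minus fed was 2.50 ± 0.36 in KO livers (SE, limma adjusted p = 0.00873) and 3.02 ± 0.36 in WT livers (adjusted p = 0.00309), and 2.76 ± 0.25 in the average (adjusted p = 0.000196). The KO call was lost in 1 of 23 alternative settings, when KO starved replicate S6 was left out. The KO difference was then 2.44 with a limma adjusted p of 0.0523, and the genes called in KO livers fell from 212 to 51. The call in WT livers and in the average passed with each array left out in turn.

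Because Apoa1, Apoa4 and Apoa5 are neighbours of which Apoa4 and Apoa5 passed the test for starvation, the stretch around the start of each gene is shown as RefSeq gives it on GRCm38.p6, 250 bases before to 50 bases after the annotated start, 5′ to 3′ on the plus strand: chr9:46240594-46240893 for Apoa4, chr9:46268358-46268657 for Apoa5 and chr9:46228380-46228679 for Apoa1. Of 2 RefSeq entries for Apoa5, 1 is shown. Capitals mark the matches to the motifs searched.
Apoa4: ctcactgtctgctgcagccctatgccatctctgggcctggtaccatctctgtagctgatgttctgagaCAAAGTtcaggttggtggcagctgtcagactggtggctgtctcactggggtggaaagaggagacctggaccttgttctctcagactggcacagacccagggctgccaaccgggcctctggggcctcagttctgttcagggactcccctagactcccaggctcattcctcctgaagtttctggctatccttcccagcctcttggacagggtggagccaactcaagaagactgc
Apoa5: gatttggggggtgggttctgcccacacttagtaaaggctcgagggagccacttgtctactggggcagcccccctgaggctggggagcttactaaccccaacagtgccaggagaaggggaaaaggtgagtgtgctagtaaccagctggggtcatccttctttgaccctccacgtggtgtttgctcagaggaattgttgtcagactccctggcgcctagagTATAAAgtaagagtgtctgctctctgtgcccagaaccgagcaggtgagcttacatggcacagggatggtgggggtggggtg
Apoa1: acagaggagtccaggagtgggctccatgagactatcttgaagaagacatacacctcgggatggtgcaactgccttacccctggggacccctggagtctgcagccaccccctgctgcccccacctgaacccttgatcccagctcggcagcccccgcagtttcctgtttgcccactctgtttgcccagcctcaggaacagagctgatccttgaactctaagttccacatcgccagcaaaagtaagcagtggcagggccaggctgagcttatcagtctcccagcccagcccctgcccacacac
A set of 4 motifs was searched on both strands. The letters TATAAA stand for the TATA box. A shortened cyclic AMP response element was searched as TGACGT. The core that nuclear receptors bind was searched as AGGTCA. For HNF4A, a nuclear receptor of liver cells, the core letters were CAAAGT. No matches overlapped in these 3 stretches. The Apoa4 stretch held CAAAGT at positions -182 to -177 from the start; 14.4% of the 32851 stretches of that length in the RefSeq table held these letters somewhere. The Apoa5 stretch held TATAAA at -31 to -26 (somewhere in 13.6% of all stretches), and the Apoa1 stretch held none of the 4. Of the other genes with an entry, Apob held TATAAA at -60 to -55 and Mttp held TGACGT on the minus strand at -29 to -24, letters found in 7.51% of all stretches. The Apoc2 stretch held the HNF4A core and a pair of nuclear receptor cores (in 16.3%). The Apoa2 stretch held 1 nuclear receptor core, and the Apoe stretch held none of the 4 motifs. Such short matches describe the letters only.

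Apoa4 was the only one of the 10 genes with more than 1 probe set, and the dimmer of its 2 probe sets gave a second reading far below the top of the scale. It read 10.69, 10.16 and 9.65 in starved KO livers and 10.04, 9.96 and 10.24 in starved WT livers. In fed KO livers it read 6.56, 7.22 and 7.15, and in fed WT livers 7.37, 7.14 and 6.78. Starved and fed livers were again apart, and here the size of the rise was 9.13-fold in KO livers (adjusted p = 0.000814) and 7.88-fold in WT livers (adjusted p = 0.000944, limma over all 28944 probe sets). The order of the genotypes turned round between the probe sets. The KO minus WT difference in the starvation response was -0.52 with the brighter probe set (95% confidence interval -1.63 to 0.59) and 0.21 with the dimmer one (-0.59 to 1.01), and both had an adjusted p of 1.

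**Figure D2:**
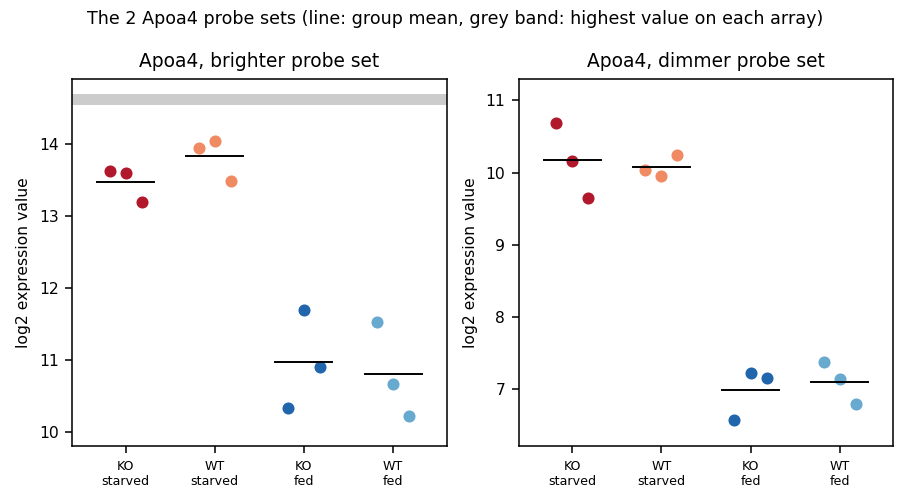
Log2 expression value (vertical axis) of the 2 Apoa4 probe sets in KO starved, WT starved, KO fed and WT fed livers; each point is 1 liver, the line is the group mean and the grey band, in the left panel, spans the highest value of each array. Starved and fed livers are apart in both panels; starved livers average 13.47 (KO) and 13.82 (WT) in the left panel, 1.12 and 0.76 below the array's highest value, while the dimmer probe set stays between 9.65 and 10.69.

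Apoa5, a minor plasma protein that promotes the breakdown of triglyceride by lipoprotein lipase, was the other gene that rose. Its level was 12.21, 12.37 and 12.46 in starved KO livers and 12.75, 12.49 and 12.46 in starved WT livers, against 11.88, 12.01 and 11.51 in fed KO livers and 12.13, 11.68 and 12.02 in fed WT livers. The lowest starved liver was above the highest fed liver, although by less than 0.1. Starved minus fed was 0.55 ± 0.16 in KO livers (adjusted p = 0.177) and 0.63 ± 0.16 in WT livers (adjusted p = 0.0872), neither past the threshold, and 0.59 ± 0.11 in the average of both (SE, limma adjusted p = 0.012). Over all settings and arrays left out, the adjusted p of that average ran from 9.97e-05 to 0.0386. With cyclic loess normalization both genotypes passed, at 0.55 in KO livers (adjusted p = 0.0467) and 0.59 in WT livers (adjusted p = 0.029).

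Apob, the single non-exchangeable protein of each VLDL particle, and Mttp, the endoplasmic reticulum protein that transfers triglyceride to it, had higher group means in starved livers but did not pass the test. Apob was at 12.60, 13.23 and 13.31 in starved KO livers and 13.34, 13.19 and 13.02 in starved WT livers. It was at 12.36, 13.29 and 12.32 in fed KO livers and 13.35, 12.33 and 12.11 in fed WT livers. Starved and fed livers overlapped in both genotypes, because 1 fed liver of each genotype was as high as the starved ones. The average difference was 0.49 ± 0.24 (SE, adjusted p = 0.318), made up of 0.39 in KO and 0.59 in WT livers. Mttp showed the same high fed livers. It was at 10.82, 11.33 and 11.46 in starved KO livers and 11.51, 11.81 and 10.54 in starved WT livers, against 10.30, 11.32 and 10.08 in fed KO livers and 11.36, 9.86 and 10.09 in fed WT livers. Its average difference was 0.74 ± 0.31 (SE, adjusted p = 0.241), from 0.64 in KO and 0.85 in WT livers.

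The high fed livers of Apob and Mttp were those with wide arrays, and this moved with both genes within each feeding state. In starved livers Apob averaged 13.27 on 4 wide and 12.81 on 2 narrow arrays, and in fed livers 13.32 on 2 wide and 12.28 on 4 narrow arrays, with no overlap in either state. Mttp averaged 11.53 on wide and 10.68 on narrow arrays in starved livers, and 11.34 and 10.08 in fed livers, again with no overlap. How many of all genes were also apart in these small splits was not counted. With group held fixed, the wide minus narrow difference of Mttp was 1.05, and 0.864% of all genes had a larger one. It was 0.75 for Apob (4.89% of genes larger), 0.61 for Apoa4 (9.56%), 0.24 for Apoa5 (37.8%) and -0.18 for Apoc1 (49.5%). The median size over all genes was 0.18. Among wide arrays alone the average starvation difference was -0.05 for Apob, 0.19 for Mttp, 0.45 for Apoa5 and 2.09 for Apoa4. Among narrow arrays alone it was 0.53 for Apob, 0.60 for Mttp, 0.56 for Apoa5 and 3.03 for Apoa4, so the sign of Apob was not the same in both. In a fit with array spread as a term, added after seeing the data, the average difference was 2.56 for Apoa4 (adjusted p = 7.37e-06), 0.51 for Apoa5 (0.00359), 0.39 for Mttp (0.0461) and 0.24 for Apob (0.242). Mttp passed the threshold only in this fit and in the one with array weights, and what sets the spread of an array was not tested.

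**Figure D3:**
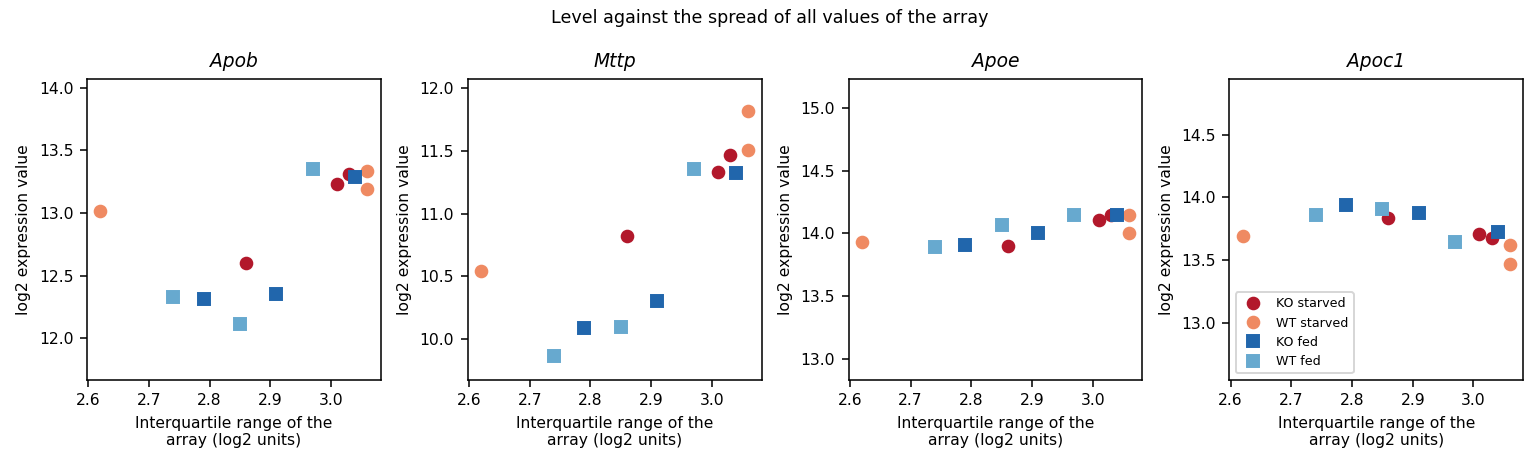
Log2 expression value (vertical axis, equal span in each panel) of Apob, Mttp, Apoe and Apoc1 against the interquartile range of all values on the same array (horizontal axis, log2 units); each point is 1 liver, circles are starved and squares fed. Apob and Mttp are high in all 6 wide arrays (2.97 and above), fed or starved, while Apoe is slightly higher and Apoc1 slightly lower there.

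The levels of the HDL proteins and of Apoe varied little. Apoa1, which builds HDL and activates the enzyme that esterifies its cholesterol, stayed between 14.05 and 14.10 in starved KO, 14.06 and 14.15 in starved WT, 13.98 and 14.10 in fed KO and 14.02 and 14.09 in fed WT livers. Its starvation difference was 0.04 in both genotypes, with a 95% confidence interval of -0.15 to 0.23 in KO and -0.14 to 0.23 in WT livers. Apoa2, the second protein of HDL, ranged from 14.15 to 14.21 in starved KO, 14.05 to 14.12 in starved WT, 14.11 to 14.27 in fed KO and 14.03 to 14.23 in fed WT livers, and starved minus fed was -0.04 in KO and -0.05 in WT livers. Apoe, the ligand by which remnants bind receptors and a product of macrophages too, was at 13.90, 14.11 and 14.15 in starved KO livers and 14.15, 14.00 and 13.93 in starved WT livers. It was at 14.00, 14.15 and 13.91 in fed KO and 14.15, 13.89 and 14.06 in fed WT livers. The groups overlapped and the differences were 0.03 in KO and -0.01 in WT livers. Within each feeding state Apoe was 0.18 higher on wide than on narrow arrays.

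The C apolipoproteins sit on the surface of VLDL and HDL. Apoc2, the cofactor that lipoprotein lipase needs, was at 12.79, 12.71 and 12.76 in starved KO livers and 13.13, 12.86 and 12.60 in starved WT livers. It was at 12.58, 12.62 and 12.76 in fed KO and 12.19, 12.33 and 12.80 in fed WT livers. The difference was 0.10 in KO and 0.43 in WT livers, and 0.26 ± 0.12 in the average (SE, adjusted p = 0.277). Apoc3, which inhibits lipoprotein lipase and remnant uptake, was at 13.98, 13.88 and 13.96 in starved KO livers and 13.80, 13.79 and 13.92 in starved WT livers. It was at 14.09, 13.86 and 14.09 in fed KO and 14.02, 14.12 and 14.10 in fed WT livers. In WT mice every starved liver was below every fed one, but the difference of -0.25 ± 0.10 had an adjusted p of 0.313, and in KO mice it was -0.07 with overlapping livers. The 2 responses differed by 0.17 (95% confidence interval -0.13 to 0.47, adjusted p = 1). Apoc1, an inhibitor of lipoprotein uptake, ranged from 13.68 to 13.84 in starved KO, 13.47 to 13.69 in starved WT, 13.72 to 13.94 in fed KO and 13.64 to 13.91 in fed WT livers, and starved minus fed was -0.10 in KO and -0.21 in WT livers. Apoc1 and Apoc3 were both lower on wide than on narrow arrays, Apoc1 by 0.15 in starved and 0.21 in fed livers.

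**Figure D4:**
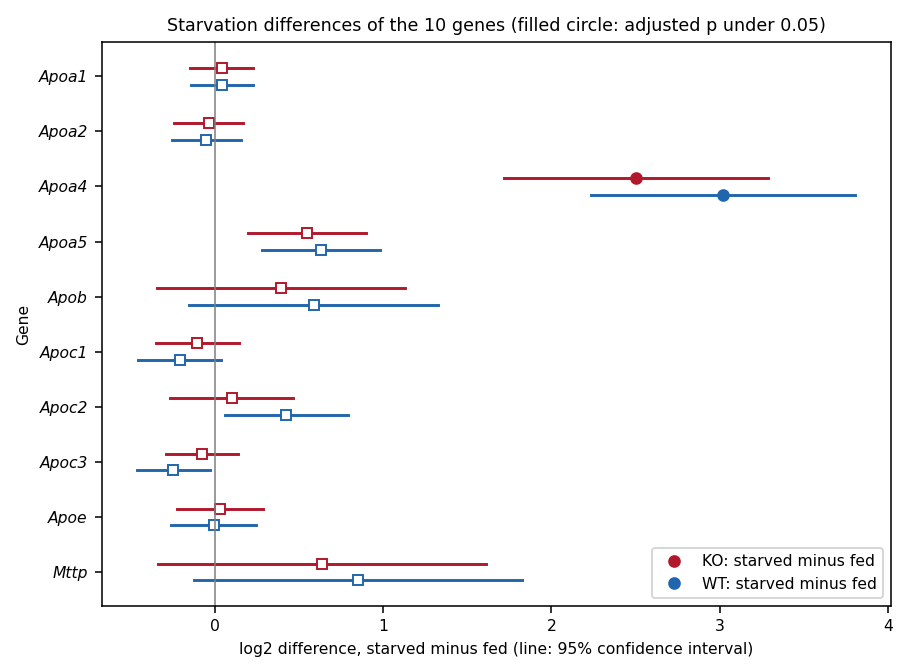
Starved minus fed log2 difference (horizontal axis) of each gene (vertical axis) in KO (upper, red) and WT (lower, blue) livers, from limma; lines are 95% confidence intervals and filled circles mark an adjusted p under 0.05. Apoa4 alone is filled, at 2.50 in KO and 3.02 in WT livers; the intervals of Apoa1, Apoa2, Apoe and Apoc1 include 0 in both genotypes and are narrow, and those of Apob and Mttp are wide.

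Several of these transcripts were near the top of the scale of the array, where differences of all genes were small. By mean level Apoa2 ranked 7, Apoa1 12, Apoe 14, Apoc3 17 and Apoc1 33 among 20719 genes, with Rn28s1, Rn18s, Rn7sk, Alb, Serpina1e and Gc above them. The mean distance of a group to the highest value on its arrays, as a fold, was 1.32 to 1.42 for Apoa2, 1.4 to 1.5 for Apoa1, 1.46 to 1.53 for Apoe, 1.48 to 1.68 for Apoc3 and 1.69 to 1.99 for Apoc1. Among the 50 genes with the highest means the median residual SD was 0.11 and the median range of the 4 group means was 0.17. None passed the threshold for the average starvation difference in limma, against 5.16% of all genes. At an unadjusted p under 0.05 there were 9, against 17.7% of all genes. The largest starvation difference among those 50 was 0.44, of Mug1. Among the next 450 genes the median residual SD was 0.24, the median range of group means was 0.34 and 15.6% passed, with Apoa4 the largest. These held Apob at rank 153, Apoc2 at 196, Apoa4 at 306 and Apoa5 at 348. Mttp ranked 980, in the next 1500 genes, of which 15.3% passed. For the 5 highest genes a value that did not move at this level does not show that the transcript did not change, and whether their probes were saturated was not tested.

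Apoa4 crossed most of this upper range. On single arrays it ranked 48, 61 and 126 in starved KO livers and 22, 14 and 69 in starved WT livers, against 1486, 589 and 947 in fed KO livers and 679, 1070 and 1592 in fed WT livers. Starved livers had thus come within 2.18-fold (KO) and 1.70-fold (WT) of the highest value of their arrays, against 12.4-fold and 14.4-fold for fed KO and fed WT livers.

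**Figure D5:**
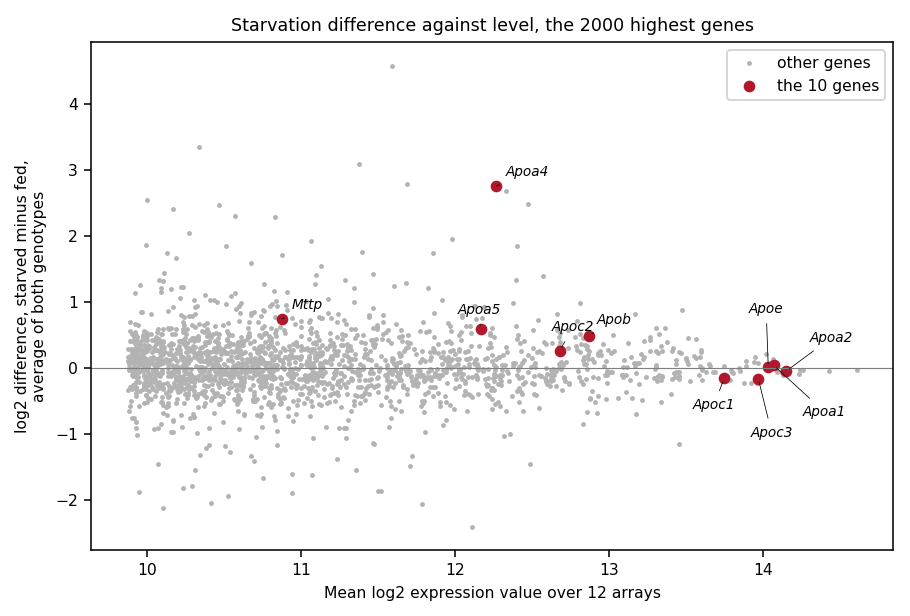
Starved minus fed log2 difference, average of both genotypes (vertical axis), against the mean log2 expression value over 12 arrays (horizontal axis) for the 2000 genes with the highest means; each point is 1 gene and the 10 genes are in red. Differences narrow towards the right, where Apoa1, Apoa2, Apoc3 and Apoe lie at means of 13.97 to 14.15; Apoa4, at 2.76, is the largest of the genes ranked 51 to 500.

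No difference between genotypes passed the threshold for any of the 10 genes, and none did among all genes either: 0% passed in fed livers, in starved livers, in the average over feeding states and in the interaction. At an unadjusted p under 0.05, limma gave 603 genes (2.91%) between fed KO and fed WT livers, 744 (3.59%) between starved KO and starved WT livers, 963 (4.65%) in the average and 422 (2.04%) in the interaction, and 0 of the 10 genes was among them in any of the 4. In fed livers KO minus WT ran from -0.14 for Apoa5 to 0.22 for Apoc2, and the KO and WT values overlapped for all 10 genes; they were apart for 7.97% of all genes. In starved livers it ran from -0.35 for Apoa4 to 0.15 for Apoc1. The starved KO and WT values did not overlap for 2 of the 10 genes, against 9.81% of all genes: Apoa5, lower in KO livers by 0.22 (12.21 to 12.46 in KO against 12.46 to 12.75 in WT, so that they all but touch), and Apoa2, higher in KO livers by 0.08. Over both feeding states the KO and WT values of all 10 genes overlapped, and those of 0.299% of all genes did not. Within 1 feeding state the 95% confidence interval of a KO minus WT difference reached 0.19 to either side for Apoa1 and 0.98 for Mttp. For Apob and Mttp a difference of 1.5-fold in either direction lies within these intervals. In the average over feeding states the interval was narrower, -0.56 to 0.48 for Apob and -0.67 to 0.71 for Mttp.

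Likeness to Apoa4 over the 12 livers was measured as the root mean square difference of centred log2 values. Predicted models, small RNA genes and symbols starting with Rn were left out. The 5 most alike of the rest were Rab30 (0.33), Cyp4a32 (0.36), Cyp4a10 (0.38), Cyp4a31 (0.43) and Gpcpd1 (0.46). The Cyp4a genes encode omega-hydroxylases of fatty acids and are classical targets of PPAR alpha, the fatty acid receptor of the fasted liver. Cyp4a10 was higher in starved livers by 2.87 in KO and 2.50 in WT mice, and Rab30, a small GTPase of the Golgi, by 2.87 in KO and 3.00 in WT mice. Mttp differed from Apoa4 by 1.07, Apoa5 by 1.16, Apob by 1.17 and the rest of the gene set by 1.35 to 1.55. The measure was not scaled for the size of a gene's changes. A gene that varied little was therefore scored as unlike Apoa4 whatever its pattern. These values cannot show whether the other genes of the set followed the pattern of Apoa4.

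Around these genes, 95 of 97 listed symbols of lipoprotein metabolism were found on the array. A symbol that was not found does not show that its gene was absent. In the average over genotypes 7 of the 95 were higher and 6 lower in starved livers, against 5.16% of all genes called in either direction. Within a genotype 1 was higher and 4 lower in KO livers, against 1.02% of all genes called. In WT livers 3 were higher and 4 lower, against 1.41%. Between KO and WT livers limma called 0 of the 95. At an unadjusted p under 0.05 there were 2 in fed and 5 in starved livers, against 2.91% and 3.59% of all genes. None of the 10 other apolipoprotein genes was called by limma. In the average starvation difference 2 of them had an unadjusted p under 0.05, against 17.7% of all genes. Apoc4, the neighbour of Apoc2, differed by 0.20 (adjusted p = 0.431) and Apom, an HDL protein, by -0.17 (0.446). Of 28 genes of particle assembly and export 1 was called, Dgat1, an enzyme of the last step of triglyceride synthesis. It was at 9.87, 9.56 and 9.53 in starved KO and 9.51, 10.13 and 9.54 in starved WT livers, and at 9.01, 8.90 and 8.92 in fed KO and 8.95, 8.65 and 9.02 in fed WT livers. The difference was 0.78 ± 0.12 (SE, adjusted p = 0.00428). Its partner enzyme Dgat2 differed by -0.07 (adjusted p = 0.852). Plin2, the coat of lipid droplets, differed by 0.94 (0.0912) and Tm6sf2, which takes part in VLDL lipidation, by 0.63 (0.0828), neither past the threshold. The median of this group was 0.11, beside -0.02 over all genes.

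Of 16 genes of HDL formation 1 was called, the endothelial lipase gene Lipg, higher by 1.15 (adjusted p = 0.0231). Among receptors and clearance genes, Mylip, a ubiquitin ligase, was higher by 0.55 (adjusted p = 0.0248). Of 6 genes that control lipoprotein lipase, Angptl4, a secreted inhibitor of the enzyme, was higher by 1.66 ± 0.21 (adjusted p = 0.0013). It was at 10.79 to 11.34 in starved KO and 10.41 to 11.22 in starved WT livers, against 8.89 to 9.72 in fed KO and 8.85 to 9.83 in fed WT livers. Gm6484, the symbol given in the table to what is now Angptl8, a partner of these inhibitors, was lower by 1.88 (a difference of -1.88, adjusted p = 0.00277), while Lpl, the lipase itself, differed by -0.06 (adjusted p = 0.891).

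Of 23 transcriptional regulators 3 were higher and 4 lower in starved livers. Ppargc1a, a coactivator of fasting genes, was higher by 1.84 ± 0.30 (SE, adjusted p = 0.00485). It was at 9.00 to 9.16 in starved KO and 8.56 to 10.52 in starved WT livers, against 7.24 to 7.91 in fed KO and 7.28 to 8.14 in fed WT livers. Creb3l3, a liver factor known in mice to act on Apoa4 and Apoa5, was higher by 0.49 (0.0467), and Nr1h4, the bile acid receptor, by 0.51 (0.0366). Srebf1, which drives fatty acid synthesis, was at 7.10 to 7.81 in starved KO and 7.16 to 7.94 in starved WT livers, against 8.78 to 9.12 in fed KO and 9.04 to 9.83 in fed WT livers. The difference was -1.61 (adjusted p = 0.000615). Ppard differed by -1.11 (0.000417), Foxa2 by -0.39 (0.0469) and Nr0b2, a repressor induced by bile acids, by -0.93 (0.000666). Hnf4a and Ppara, at 0.17 and 0.86, did not pass (adjusted p = 0.726 and 0.29). The calls of Lipg, Mylip, Creb3l3, Nr1h4 and Foxa2 were lost in 7, 8, 11, 11 and 15 of the 22 alternative settings, arrays left out among them, and the other calls named here were kept in all 22. In the separate genotypes Nr0b2 was lower by 1.35 in starved WT livers (a difference of -1.35, adjusted p = 0.00257) and differed by -0.51 in KO livers (0.178). The call in WT livers was lost in the fit of only the groups compared (adjusted p = 0.0904). It was at 9.69, 9.86 and 9.76 in starved KO livers, against 8.72, 8.34 and 9.03 in starved WT livers, and that difference of 1.07 had an adjusted p of 0.292. The KO minus WT difference in its starvation response was 0.84 (adjusted p = 1).

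Apolipoproteins are also made outside hepatocytes, so markers of other cells were read beside them. All 10 enterocyte markers were on the array, with a mean level per array of 6.19 to 6.32 in KO starved, 6.19 to 6.36 in WT starved, 5.82 to 6.11 in KO fed and 6.09 to 6.18 in WT fed livers. Of these, 7 averaged below the median gene at 6.70, with Sis at 3.70, Cdx2 at 5.53 and Vil1 at 5.70 among them, and 3 averaged above it: Fabp2 at 10.32, Cdx1 at 7.54 and Lgals4 at 7.27. Lgals4 was the only enterocyte marker called with starvation, higher in both genotypes. For Apoe, 8 Kupffer cell and macrophage markers averaged 8.67 to 8.89 in KO starved and 8.53 to 9.43 in WT starved livers. In fed livers they averaged 8.73 to 8.89 in KO and 8.72 to 9.34 in WT mice. In any comparison of 2 groups or the average starvation difference limma called 0 of the 8. At an unadjusted p under 0.05 there was 1, between fed KO and fed WT livers, against 2.91% of all genes. None of the 9 hepatocyte markers was called either. In the average starvation difference 5 of them had an unadjusted p under 0.05, against 17.7% of all genes. Of 5 red blood cell markers Alas2, an enzyme of heme synthesis, was lower in starved livers in both genotypes and in the average, and Car1, a carbonic anhydrase, in WT livers and in the average. The list did not move as one: its median starvation difference was 0.30 in KO livers, -0.11 in WT livers and 0.10 in the average. The 5 averaged 10.13 to 10.63 in KO starved, 9.36 to 10.15 in WT starved, 10.28 to 10.76 in KO fed and 10.53 to 10.71 in WT fed livers. Of 7 stellate cell markers Pdgfrb, a growth factor receptor, was lower in starved KO livers and in the average. In the average 4 of the 7 had an unadjusted p under 0.05, against 17.7% of all genes. The median starvation difference of this list was -0.28 in KO livers, -0.08 in WT livers and -0.26 in the average. The 7 averaged 8.19 to 8.30 in KO starved, 8.10 to 8.40 in WT starved, 8.37 to 8.66 in KO fed and 8.37 to 8.48 in WT fed livers. In limma 0 markers of sinusoidal endothelium, cholangiocytes, adipocytes and neutrophils were called. In the average starvation difference 2 of 7, 1 of 6, 0 of 6 and 0 of 5, respectively, had an unadjusted p under 0.05. Over all genes that share was 17.7%. The part of these marker lists in the results for Apoa4 and Apoa5 was not tested.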

How the data were processed

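Per the labels, liver RNA was extracted with Trizol and RNeasy columns and labelled with the Ambion WT Expression and Affymetrix whole-transcript kits. The deposited log2 values per probe set were made by the authors with RMA in oligo, per the submitters' processing notes, which also name limma; for versions, array model and genome build the sources used here give nothing. RMA normalizes by quantiles, so differences are relative to other genes. Of 28944 probe sets 5132 had no symbol; the brightest of each symbol gave 20719 genes. Group means were fitted with limma 3.58.1 (lmFit, eBayes) in R 4.3.3 over all 12 arrays, with Benjamini-Hochberg adjustment per contrast; the fit was tested on simulated data. Figures used matplotlib 3.10.9. The 10 genes, the gene and marker lists and the tests were chosen with earlier results of these data known. All 10 were named, as were list genes past the threshold, others of the lists by value, and the 5 genes most like Apoa4. RefSeq promoter entries on GRCm38.p6 were found for 8 of the 10, not Apoc1 and Apoc3. Alternatives were normalization, probe set rule, filters, weights, blocks and arrays left out; array spread with 6 wide and 6 narrow arrays as a term and a fit of all probe sets were added after seeing the data. Numbers of arrays limit the precision. Some list genes and 1 motif are not reported here.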

Additional observations from a re-analysis of the deposited data

How the results depend on the processing

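Of 1580 recomputed values of the 10 genes, none that was called changed sign; 1460 kept direction and side of the threshold, 17 passed it anew, 1 no longer passed and 102 uncalled values changed sign. The number of the 10 genes called for starvation was 2 in KO, 2 in WT and 2 in the average with cyclic loess, against 1.31%, 2.01% and 6.3% of all genes. It was 5 in KO, 6 in WT and 6 in the average with array weights, against 36.9%, 27% and 45.8% of all genes (Apoa4, Apoa5, Apob, Mttp and Apoc3, and Apoc1 except in KO livers; weights 0.206 to 6.14). With the 6 wide and 6 narrow arrays as a term it was 1, 2 and 3, against 4.25%, 5.91% and 10.8%. With each array left out in turn it was 1 in WT livers and 2 in the average. In KO livers it was 0 to 1 (0 without KO starved replicate S6). Over all genes the counts were then 45 to 344 in KO, 64 to 659 in WT and 625 to 1608 in the average.

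Counts over all genes moved more. Array weights gave 7639 for starvation in KO, 5600 in WT and 9499 in the average, and 1267 for KO against WT in fed livers, 13 in starved livers, 170 in the average and 106 for the interaction. A fit of only the groups compared gave 357 in KO and 11 in WT livers. A block that sets WT starved replicate 3 apart gave 344 in KO, 659 in WT, 1608 in the average and 1 for KO against WT in starved livers. Leaving that array out gave the same counts. The block is therefore not a separate check, although both are counted among the alternative settings. The 6 wide and 6 narrow arrays gave 881, 1225 and 2235, and 4 for KO against WT in fed livers. With each array left out the counts for starvation were 45 to 344 in KO, 64 to 659 in WT and 625 to 1608 in the average. The lowest came without KO fed replicate F5, WT starved replicate S4 and KO fed replicate F5, in that order, and the highest without WT starved replicate 3. The KO against WT counts were 0 in fed livers, 0 to 3 in starved livers, 0 to 1 in the average and 0 to 1 for the interaction. The cause of these moves was not tested.

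Title numbers repeat across groups of different mice. Livers with the same number deviated together for numbers 5 (correlation over genes 0.454) and 6 (0.532) but not 4 (-0.172). The arrays of S5 and F5 were both narrow and those of S6 and F6 both wide, while S4 was wide and F4 narrow. A shared number and a shared array spread thus cannot be told apart here, and whether the numbers pair the samples was not tested. The number was also used as a random replicate block (consensus correlation 0.0226). Of the 10 genes 1 was then called for starvation in KO, 1 in WT and 2 in the average, with no call changed. Over all genes that fit called 224 in KO, 300 in WT and 1090 in the average. Background signal per probe was not used here, so the limit set by dim probes was not tested.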
